A study of Homo sapiens with 9 samples.

Results

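Gene deserts were taken as the counted regions on chromosomes 1 to 22 whose centre lay over 1 Mb from the nearest end of any protein-coding gene in the RefSeq gene table for GRCh38.p14. The rule found 4933 of the 148797 regions in the counts table, of 145580 on those chromosomes. Of these, 3456 were pericentromeric, meaning that their centre lay within 5 Mb of a cytogenetic centromere band, and 3001 of them (86.8%) lay inside the band itself. The other 1477 lay out on the chromosome arms and are called arm desert regions here. The assay was ATAC-seq, which reads open chromatin from where Tn5 transposase cuts and tags DNA. The cells were the human neuroblastoma line SK-N-BE(2)c, which carries MYCN amplification. All cells were transfected with Lipofectamine 2000 and an antisense oligonucleotide (ASO) at 100 nM and harvested after 48 h. The groups were NCA, the control oligonucleotide, and ASO2 and ASO10, which target the long non-coding RNA NESPR. There were 3 libraries per group, and nothing in the labels says that they came from separate cultures, so p-values measure only the spread between these samples, which may be technical.

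Gene deserts are long stretches without protein-coding genes. Many flank genes for neuronal adhesion molecules and developmental regulators, and they are usually late-replicating and compact, with scattered distal elements and long non-coding RNA genes. Centromeres are a different kind of gene-free sequence, built from tandem alpha satellite repeats and packed as heterochromatin, where short reads often match many places. The RefSeq table lists no immunoglobulin segments as protein-coding genes, so 29 arm members beyond TMEM121 on chromosome 14 lie in the immunoglobulin heavy chain array. A further 31 members lie inside a very long gene, over 1 Mb from both of its ends, with 11 in RBFOX1 and 9 in DLG2.

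Few desert regions touched an annotated transcript start. Among 35116 RefSeq promoter windows, which run from 250 bases before to 50 after a start, 10 members overlapped at least 1, with 5 on the arms and 5 pericentromeric. The windows of 4 long non-coding RNA genes are shown because they hold a named start site and share at least 159 bases with a desert region. They were chosen after their values were seen. Sequences are from RefSeq, GRCh38.p14, 5′ to 3′ on the gene's strand, and capitals mark the bases that lie inside the counted region. LINC00613 (minus strand, chr4:135913631-135913930) and LOC105370285 (minus strand, chr13:82396659-82396958) lie in arm deserts where accessibility rose, LINC01550 (minus strand, chr14:97978075-97978374) in an arm desert where it did not, and LINC00662 (minus strand, chr19:27793891-27794190) inside the chromosome 19 centromere band.
LINC00613: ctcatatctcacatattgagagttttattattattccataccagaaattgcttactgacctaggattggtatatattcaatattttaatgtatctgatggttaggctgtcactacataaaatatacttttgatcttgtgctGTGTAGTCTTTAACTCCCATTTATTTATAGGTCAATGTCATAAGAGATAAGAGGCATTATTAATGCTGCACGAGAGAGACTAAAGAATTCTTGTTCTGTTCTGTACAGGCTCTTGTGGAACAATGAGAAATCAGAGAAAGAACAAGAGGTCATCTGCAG
LOC105370285: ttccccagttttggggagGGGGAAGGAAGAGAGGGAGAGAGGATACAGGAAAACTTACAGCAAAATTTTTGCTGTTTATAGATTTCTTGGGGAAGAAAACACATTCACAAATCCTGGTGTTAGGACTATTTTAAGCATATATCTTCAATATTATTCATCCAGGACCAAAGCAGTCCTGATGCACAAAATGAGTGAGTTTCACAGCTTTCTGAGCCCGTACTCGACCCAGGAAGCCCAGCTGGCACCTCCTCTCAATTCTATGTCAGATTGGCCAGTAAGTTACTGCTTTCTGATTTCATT
LINC01550: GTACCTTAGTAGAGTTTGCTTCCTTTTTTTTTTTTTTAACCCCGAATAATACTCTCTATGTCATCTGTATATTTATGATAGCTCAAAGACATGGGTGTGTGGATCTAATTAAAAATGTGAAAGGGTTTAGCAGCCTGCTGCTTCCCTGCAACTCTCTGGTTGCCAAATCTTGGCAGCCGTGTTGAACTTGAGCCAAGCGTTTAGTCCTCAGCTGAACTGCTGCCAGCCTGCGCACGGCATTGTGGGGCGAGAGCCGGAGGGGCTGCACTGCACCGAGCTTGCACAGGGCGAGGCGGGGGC
LINC00662: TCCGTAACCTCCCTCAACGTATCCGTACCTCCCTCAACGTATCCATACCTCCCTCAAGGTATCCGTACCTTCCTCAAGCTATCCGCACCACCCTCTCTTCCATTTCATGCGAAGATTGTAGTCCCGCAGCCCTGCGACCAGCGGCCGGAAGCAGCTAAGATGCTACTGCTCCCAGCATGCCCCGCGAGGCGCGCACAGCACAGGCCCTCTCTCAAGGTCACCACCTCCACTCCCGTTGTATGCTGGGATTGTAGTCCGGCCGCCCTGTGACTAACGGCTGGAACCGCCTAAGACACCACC

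These windows differed in base composition. The GC content was 34% for LINC00613, 42.7% for LOC105370285, 50% for LINC01550 and 59.3% for LINC00662, beside a median of 58.7% over all promoter windows. Both strands were searched for 4 motifs, none of which contains another. The E-box bound by bHLH factors (CANNTG) was in the windows of LINC00613, LOC105370285 and LINC01550 and in 68.7% of all promoter windows. A GATA factor site (AGATAA) was in that of LINC00613 alone of these and in 10.3% of all. A pair of adjoining CpG sites (CGCG) was in that of LINC00662 alone of these and in 49.9% of all. The AP-1 site (TGANTCA), present in 7.71% of all windows, was in none of these.

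The region at the LINC00613 start rose under ASO2. It measured 1.42, 3.78 and 2.61 CPM (counts scaled to the TMM-normalized total of the tested regions) in NCA, 4.49, 7.4 and 5.96 with ASO2 and 2.46, 2.62 and 2.47 with ASO10. The ASO2 libraries all lay above the other 6. The log2 fold change was 1.2 against NCA (adjusted p = 0.0127, edgeR's quasi-likelihood test, adjusted by Benjamini-Hochberg over all tested regions) and 1.24 against ASO10 (adjusted p = 0.0147). These calls were lost in 3 and 5 of the fits with a library left out, for example without ASO2 replicate 2 (adjusted p = 0.177 and 0.178). The region at the LOC105370285 start measured 1.43 ± 0.526 CPM in NCA, 3.79 ± 1.9 with ASO2 and 1.9 ± 0.513 with ASO10 (SD, n = 3 each). Its call under ASO2 (log2 fold change 1.42, adjusted p = 0.0367) was lost under DESeq2 (adjusted p = 0.0642) and limma-voom (adjusted p = 0.11), and its ASO2 and NCA libraries overlapped. The LINC01550 start stood at 23.6 ± 1.31, 21.3 ± 1.98 and 18.2 ± 1.24 CPM in NCA, ASO2 and ASO10, and the LINC00662 start at 50.1 ± 1.56, 44.1 ± 1.88 and 44.4 ± 2.5. Neither was called in any comparison.

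The library totals ran from 7293565 to 10948569 counts, and the desert regions held 213761 to 316054 of them per library. The strongest single region of the table took 6.98% to 9.04% of a library. As a check of the cell type, 6 of 8 adrenergic neuroblastoma marker genes, among them HAND2 and ISL1, had a region over 10 CPM within 1 kb of a gene end, with 4.84 CPM at GATA3 and no region at TH. None of 9 marker genes of blood, liver, epithelium, muscle and endothelium did, and the highest of them, APOA1, reached 7.48 CPM, above GATA3. The target RNA was not measured by this assay, so the effect of the oligonucleotides on NESPR was not examined.

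The first comparison asked how much of each library fell in deserts. Arm desert regions took more of the counts under both oligonucleotides, and more under ASO2 than under ASO10. Their share was 0.3873%, 0.3857% and 0.4087% in the NCA libraries, 0.5208%, 0.5357% and 0.529% with ASO2 and 0.438%, 0.4276% and 0.4219% with ASO10. The 3 groups did not overlap. In a pool of cells, more cells with an open region and more cutting per cell cannot be told apart. The mean rose 1.34-fold from NCA to ASO2 and 1.09-fold from NCA to ASO10, and was 1.23-fold higher under ASO2 than under ASO10. Each difference gave a two-sided exact permutation p of 0.1, which is the smallest that 3 against 3 libraries can give. Arm regions within 1 kb of a gene end, a common gauge of signal over background, took 20.82 ± 0.793% of counts in NCA, 20.16 ± 1.08% with ASO2 and 22.23 ± 0.623% with ASO10 (SD, n = 3 each). ASO2 overlapped NCA and ASO10 lay above it, and the part of this in the desert shares was not tested.

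Pericentromeric desert regions held more counts but did not follow the arms. Their share was 2.43%, 2.627% and 2.363% in NCA, 2.41%, 2.083% and 2.358% with ASO2 and 2.443%, 2.597% and 2.444% with ASO10. The ASO2 and NCA libraries overlapped (exact permutation p = 0.2), as did ASO10 and NCA (p = 0.8), while all ASO2 libraries lay below all ASO10 libraries (0.915-fold, exact p = 0.1). Summed over both classes, deserts held 2.867 ± 0.128%, 2.812 ± 0.169% and 2.924 ± 0.0879% of counts in NCA, ASO2 and ASO10 (SD, n = 3 each), with exact permutation p of 0.7 for ASO2 and 0.5 for ASO10. The ratio of arm to pericentromeric desert counts was 0.1598 ± 0.0131 in NCA, 0.2325 ± 0.0217 with ASO2 and 0.1722 ± 0.00734 with ASO10. This ratio takes out the library total. It was 1.46-fold higher under ASO2 without overlap (exact p = 0.1), and 1.08-fold higher under ASO10 with overlap (exact p = 0.3).

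**Figure D1:**
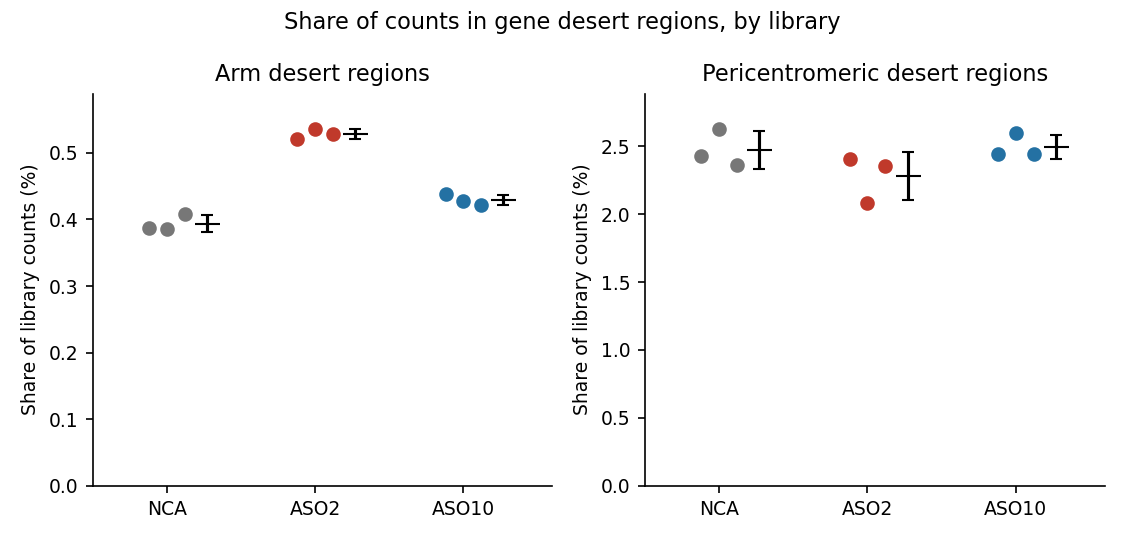
Share of each library's counts (percent, y axis) in arm desert regions (left) and pericentromeric desert regions (right) for NCA, ASO2 and ASO10. Points are libraries, bars the mean and SD (n = 3). On the arms the ASO2 libraries lie at 0.5208% to 0.5357%, above all others, while the pericentromeric shares of ASO2 and NCA overlap.

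Single regions were then tested. After a filter on low counts, 4322 members were tested among 119417 regions, 1097 on the arms (74.3% of them) and 3225 pericentromeric (93.3%). The filter keeps a region that is high in only 1 group, so the counts and medians below describe regions that passed it. Under ASO2, 245 members were called against NCA at an adjusted p under 0.05, 230 higher and 15 lower. Over all tested regions 5.6% were called, 4.79% higher and 0.808% lower, and the desert share of 5.67% was near that background. Split by position, the calls separated. On the arms 219 regions were higher and 6 lower, so 20% of the tested regions rose, while near the centromeres 11 were higher and 9 lower, 0.341% and 0.279%. That near-even split depended on the fit: it was 12 and 26 with loess offsets and 9 and 20 with at least 10 counts in every library, and the 20 calls fell to 6 without ASO2 replicate 2 and in limma-voom, and to 11 without ASO2 replicate 1. The median log2 fold change was 0.37 on the arms and -0.112 near the centromeres, against -0.024 over all tested regions, and 66.7% of arm and 34% of pericentromeric regions had a positive value. With no filter the arm calls were 207 higher and 6 lower and the median was 0.344. Without ASO2 replicate 2 the arm calls fell to 139.

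Under ASO10 fewer desert regions were called, again mostly on the arms. Against NCA, 40 members were called, 38 higher and 2 lower, or 0.925%, beside 1.09% of all tested regions (0.876% higher and 0.21% lower). On the arms 35 were higher and 1 lower, so 3.19% rose, and near the centromeres 3 were higher and 1 lower. The median log2 fold change was 0.091 on the arms and 0.044 near the centromeres, against -0.007 over all. The arm count under ASO10 rested on the libraries used. It fell to 14 without NCA replicate 1, 15 without ASO10 replicate 1, 16 without NCA replicate 2 and 19 without ASO10 replicate 3. With both ASOs averaged, 137 members differed from NCA, 128 higher and 9 lower, or 3.17% beside 2.99% of all tested regions (2.4% higher and 0.594% lower). Of these, 122 higher and 4 lower lay on the arms. Without NCA replicate 2 the 137 members fell to 71, and without NCA replicate 1 to 76.

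ASO2 and ASO10 were compared directly in 1 contrast, which does not use the NCA libraries for the difference. It called 97 members, 89 higher under ASO2 and 8 lower, or 2.24% beside 3.23% of all tested regions (2.54% higher and 0.682% lower). On the arms 85 were higher under ASO2 and 2 lower (7.75% and 0.182%), with a median log2 fold change of 0.301. Near the centromeres 4 were higher and 6 lower, with a median of -0.155, against -0.002 over all tested regions. The 87 arm calls fell to 41 without ASO2 replicate 2, 51 without ASO10 replicate 3, 53 without ASO10 replicate 1 and 54 without ASO10 replicate 2.

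There were 32 members called against NCA in one direction for ASO2 and for ASO10, all higher, where 0.518% of all tested regions were so called. They were 13.1% of the desert calls under ASO2 and 80% of those under ASO10, beside 9.24% and 47.6% of the calls over all regions, and 30 of them lay on the arms. Both comparisons use the same NCA libraries, and the count fell to 14 without NCA replicate 1, 15 without ASO10 replicate 1, 16 without NCA replicate 2, 18 without ASO10 replicate 3 and 15 in limma-voom. Of 213 members called under ASO2 but not under ASO10, 73 (34.3%) also differed between ASO2 and ASO10, near the 34.6% over all regions. For the others a difference between the oligonucleotides was not shown.

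The arm deserts were set beside arm regions closer to genes. The share of tested regions called higher under ASO2 was 0.555% within 1 kb of a protein-coding gene end, 3.4% at 1 to 50 kb, 6.31% at 50 to 200 kb, 11.6% at 200 kb to 1 Mb and 20% in the arm deserts. The median log2 fold change was -0.052, -0.051, 0.026, 0.158 and 0.37 in the same classes. ASO10 had this order only beyond 1 kb, with 2.1%, 0.483%, 0.692%, 1.73% and 3.19% called higher. Its medians in the same classes were 0.089, -0.044, -0.032, 0.0185 and 0.091. The rule's limit did not mark a step: arm regions at 900 kb to 1 Mb had 18.5% called higher under ASO2 and a median of 0.263, and those at 1 to 1.1 Mb had 19% and 0.384. Arm regions over 1.5 Mb away had 20.5% and 0.452. As a test over libraries, the counts in arm deserts were divided by those in arm regions at 200 kb to 1 Mb. The ratio was 0.03347, 0.03248 and 0.03513 in NCA, 0.04284, 0.04519 and 0.04255 with ASO2 and 0.03812, 0.03609 and 0.03685 with ASO10. All 3 groups were apart, by 1.29-fold for ASO2 and 1.1-fold for ASO10 (exact permutation p = 0.1 each, the smallest possible).

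**Figure D2:**
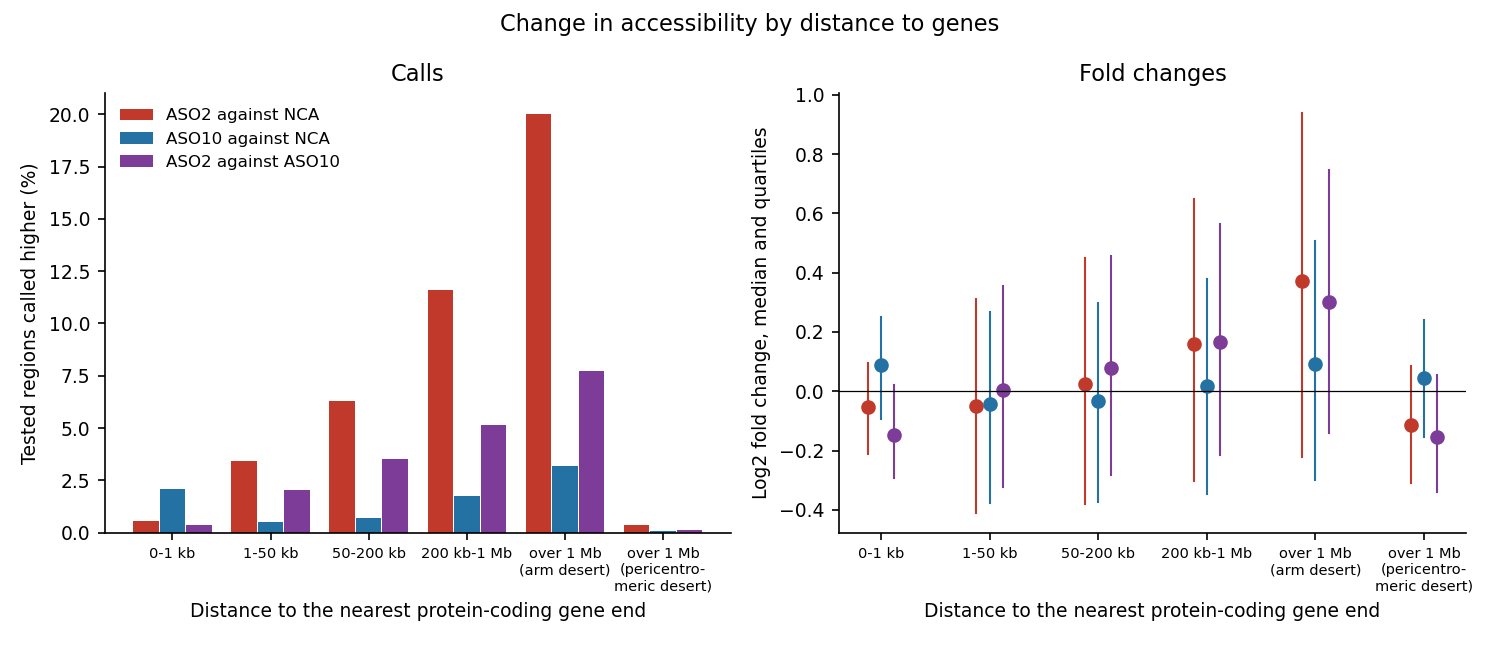
Percent of tested regions called higher (left, y axis) and the median log2 fold change with quartiles (right, y axis) by distance to the nearest protein-coding gene end (x axis), for 3 comparisons in 3 colours. The first 5 classes lie over 5 Mb from a centromere band; the ASO2 bars rise from 0.555% to 20% across them and drop to 0.341% in pericentromeric deserts.

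The arm deserts were also read within ranges of abundance. A rise under ASO2 lifts a region's mean over all libraries, so the ranges were set by the mean CPM of the group that the comparison leaves out, a choice made after seeing the data. Among tested regions over 3 log2 CPM under ASO10, 54 of 113 arm desert regions (47.8%) were higher under ASO2 than in NCA, beside 30.5% of arm regions at 200 kb to 1 Mb, 7.77% of all regions and 0.478% of pericentromeric desert regions. From 2 to 3 log2 CPM the shares were 32.8%, 24%, 9.09% and 0.12%, and from 1 to 2 log2 CPM 21.5%, 10.4%, 4.64% and 0.566%. At or under 1 log2 CPM the shares were 8.11%, 3.65%, 1.67% and 0.148%. Regions this low under ASO10 may have passed the filter only through ASO2 or NCA, so this range is partly set by the groups compared. With ranges set by ASO2, 27 of 168 arm desert regions over 3 log2 CPM (16.1%) were higher under ASO10, beside 9.04% at 200 kb to 1 Mb and 3.65% of all regions. Above 1 log2 CPM abundance did not order the pericentromeric regions, whose median log2 fold change under ASO2 was -0.116, -0.124 and -0.114 in the 3 ranges. At or under 1 log2 CPM, the range partly set by the groups compared, their median was -0.062.

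By chromosome, arm desert regions were present on 16 autosomes and were absent from 12, 15, 17, 19, 20 and 22. Their summed CPM was higher in all 3 ASO2 libraries than in all 3 NCA libraries on 13 of the 16. With all regions of a chromosome summed, 3 of 22 chromosomes (13.6%) were so placed, namely 4, 13 and 18. Chromosome 4, which has the most arm desert regions (237), went from 774 ± 24.4 CPM in NCA to 1170 ± 51.7 with ASO2 and 939 ± 35.4 with ASO10. On it 61 of 181 tested regions (33.7%) were higher with ASO2, beside 11.3% of all its regions, and 11 with ASO10. Chromosome 5 had 24 of 74 higher under ASO2 (32.4%, beside 7.56%), and its sum went from 284 ± 8.85 to 401 ± 35.1 and 334 ± 9.59. Chromosome 13 had 37 of 176 (21%, beside 8.02%), with sums of 574 ± 42.8, 826 ± 23.3 and 666 ± 13.1, and chromosome 1 had 30 of 173 (17.3%, beside 4.02%), with 611 ± 16.8, 792 ± 15.6 and 639 ± 12.2. The ratio of ASO2 to NCA sums ran from 0.986 on chromosome 16 to 1.78 on chromosome 18, which has 14 arm desert regions. Chromosomes 9, 14 and 16 had ASO2 libraries that overlapped NCA, with ratios of 1.03, 1.06 and 0.986. ASO10 lay above NCA on 9 of the 16, and with all regions summed on 9 of 22 (40.9%).

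Pericentromeric desert regions were present on 21 autosomes and absent from 21. Chromosome 1 held 935 of them, chromosome 13 595, chromosome 20 406, chromosome 10 236 and chromosome 3 205. Under ASO2 the median log2 fold change was negative on each of the 21, and the ratio of ASO2 to NCA sums ran from 0.708 to 0.997. The ASO2 libraries lay below all NCA libraries on 5 of them (2, 8, 12, 14 and 18), beside 2 of 22 (9.09%) with all regions summed, and above on none. These medians all come from the same libraries. The median over all pericentromeric desert regions, -0.112, varied between the ASO2 libraries with an SD of 0.0886, and the difference in share of counts shrank from -0.189 to -0.089 percentage points without ASO2 replicate 2 and to -0.112 without NCA replicate 2. Chromosome 1 summed to 13700 ± 924 CPM in NCA, 12700 ± 914 with ASO2 and 14100 ± 426 with ASO10, and these groups overlapped, apart from ASO2 against ASO10. Under ASO10 the ratio was over 1 on 9 of the 21 and between 0.815 and 1.08.

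**Figure D3:**
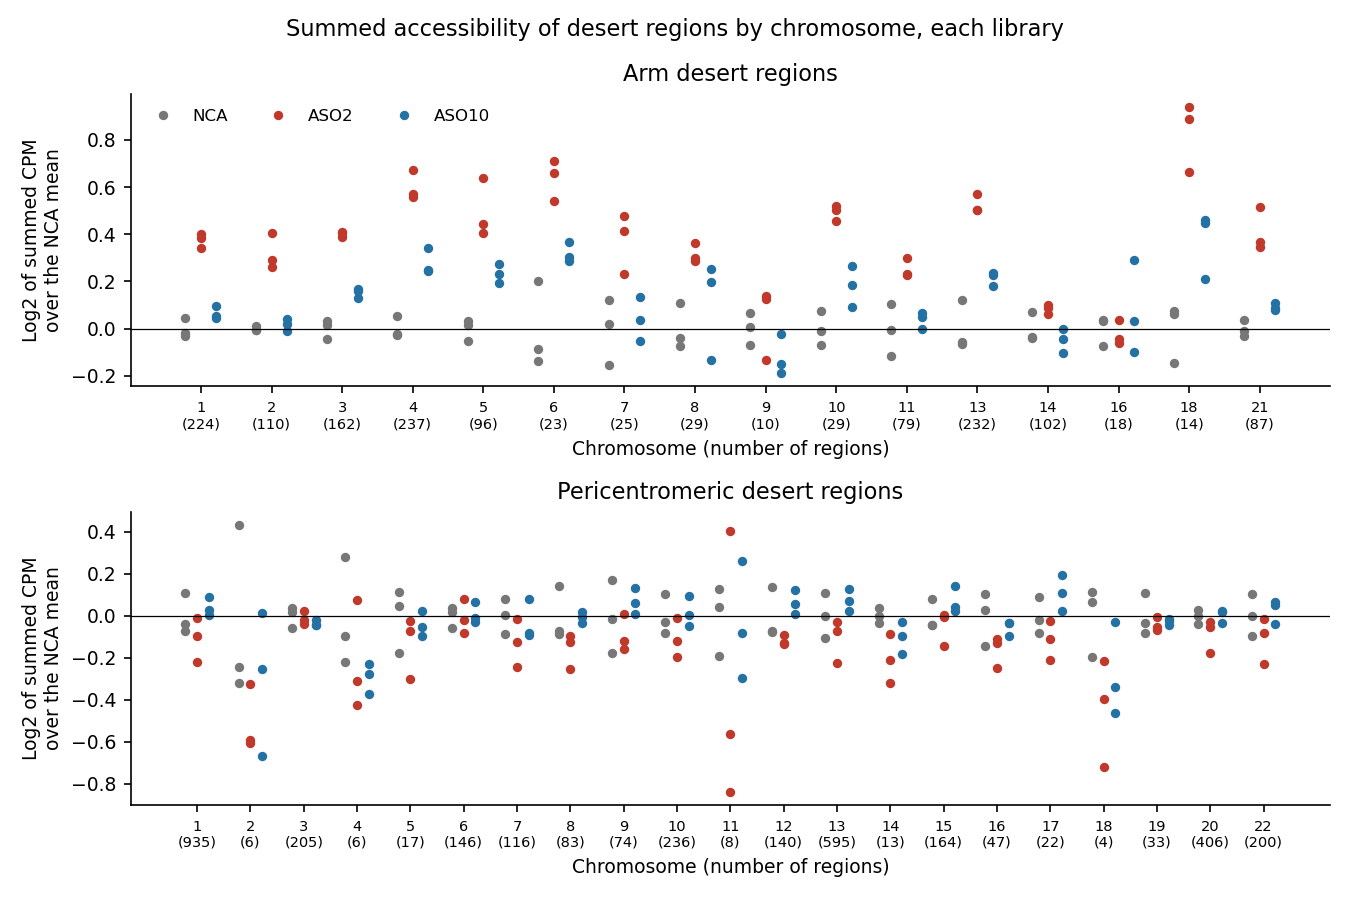
Summed CPM of arm (top) and pericentromeric (bottom) desert regions on each chromosome (x axis, number of regions in brackets), as log2 of each library over the NCA mean (y axis). Points are libraries; on the arms all ASO2 points lie above NCA on 13 of 16 chromosomes, and near the centromeres on none of 21.

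Distance to the centromere was read more finely. Inside a centromere band 3 of 2819 tested regions were higher under ASO2 and 9 lower, while in the desert regions within 5 Mb but outside a band 8 of 406 were higher (1.97%) and none lower. Regions in the same pericentromeric windows but 1 Mb or less from a gene end had 251 of 7984 higher (3.14%) and 56 lower, with a median log2 fold change of -0.074. Widening the window to 10 Mb raised the pericentromeric calls from 20 to 34, of which 25 were higher. The count of calls inside the window therefore depended on its limit. The ratio of pericentromeric desert counts to the counts of nearer regions in those windows was 0.3045 ± 0.0186 in NCA, 0.2904 ± 0.0212 with ASO2 and 0.2983 ± 0.014 with ASO10 (SD, n = 3 each; exact permutation p = 0.5 and 0.8).

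The arm regions fell into 74 deserts, each the stretch between neighbouring protein-coding genes or inside a very long gene. The 65 with at least 3 members included 42 whose summed CPM in every ASO2 library exceeded every NCA library (15% of all stretches between neighbouring genes with at least 3 regions did so) and 1 that lay below in every one (11.9% did so). ASO10 lay above NCA in 26 of the 65 and below in 4 (12.6% and 10% of all stretches). Over all 74, the ratio of ASO2 to NCA was over 1 in 64, with a median of 1.33, and 44 held at least 1 region called higher. These counts were not made over all stretches, and a stretch with more regions has more that can be called. They are therefore given as description, without a background. Of 24 pericentromeric deserts, ASO2 lay above in 3 and below in 7, with a median ratio of 0.927. The 3 were GBE1 to CADM2 and NSUN3 to EPHA6 on chromosome 3 and EYS to ADGRB3 on chromosome 6.

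The arm deserts named here were chosen for their size or their response after their values were seen. On chromosome 4, the desert between PCDH7, a protocadherin, and ARAP2, a regulator of small GTPases, has 60 regions. It summed to 200 ± 11 CPM in NCA, 342 ± 21.4 with ASO2 and 244 ± 11.1 with ASO10, and 21 of its 52 tested regions were higher under ASO2. The desert between AGA, a lysosomal enzyme, and TENM3, a teneurin that guides neuronal connections, has 51 regions and went from 217 ± 8.64 to 345 ± 17.9 and 283 ± 9.82, with 18 of 43 higher. PABPC4L to PCDH18, which holds LINC00613, went from 47.7 ± 2.73 to 82.2 ± 5.41 and 63.4 ± 5. In these deserts all 3 groups were apart.

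On chromosome 13, the desert between SPRY2, an inhibitor of receptor tyrosine kinase signalling, and SLITRK1, a neuronal membrane protein, went from 188 ± 16.2 to 290 ± 10.1 and 220 ± 3.77 CPM. It holds the LOC105370285 start, and 16 of its 65 tested regions were higher under ASO2. Chromosome 21 has its largest arm desert between NCAM2, a neural cell adhesion molecule, and MRPL39, a mitochondrial ribosomal protein. Its 81 regions went from 254 ± 7.26 to 339 ± 21.3 and 270 ± 2.88. On chromosome 5, NUDT12 to EFNA5, an ephrin ligand gene, went from 88.5 ± 3.49 to 142 ± 14.7 and 111 ± 1.17. The desert with the most arm regions, 98 between the amylase gene AMY1C and the methyltransferase gene PRMT6 on chromosome 1, went from 221 ± 9.64 to 271 ± 10 under ASO2, without overlap, and stood at 226 ± 8.1 under ASO10, which overlapped NCA. TMEFF2 to SLC39A10 on chromosome 2 and CDC73 to KCNT2 on chromosome 1 had the same pattern, 1.22-fold and 1.32-fold higher under ASO2 and at 0.981-fold and 1.01-fold under ASO10.

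Other deserts did not rise. TENM4 to FAM181B on chromosome 11 stood at 59.2 ± 5.66, 52.1 ± 10.1 and 49.2 ± 10.6 CPM in NCA, ASO2 and ASO10, and none of its 22 tested regions was called against NCA by edgeR, DESeq2 or limma-voom. At an unadjusted edgeR p under 0.05, 1 was higher and 3 lower under ASO2 and 2 lower under ASO10. VRK1 to BCL11B on chromosome 14, which holds the LINC01550 start, stood at 47.9 ± 2.88, 42.3 ± 7.93 and 42.8 ± 0.341. The immunoglobulin end of chromosome 14 stood at 79.2 ± 5.78, 72.9 ± 4.35 and 69 ± 7.17. FAM98A to CRIM1 on chromosome 2 was the 1 arm desert whose ASO2 libraries all lay below NCA, at 43.5 ± 4.28 against 36.3 ± 2.07.

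**Figure D4:**
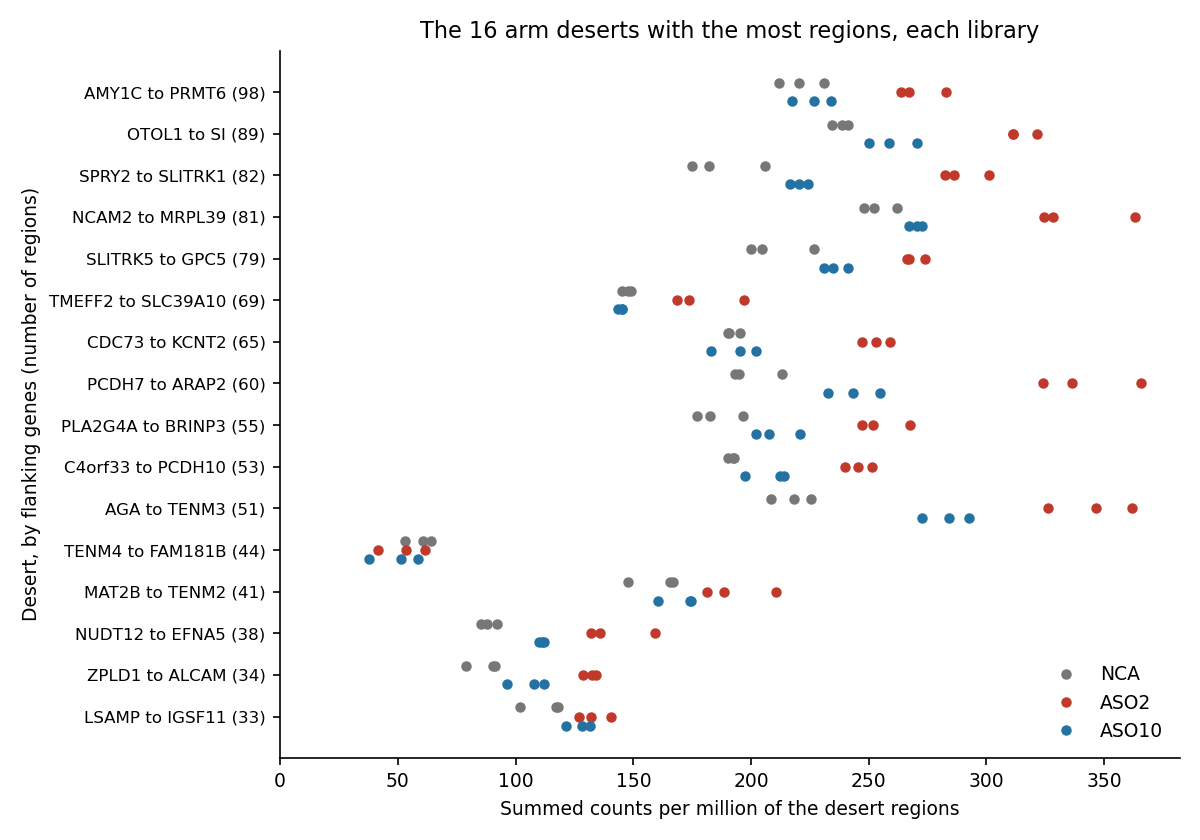
Summed CPM (x axis) of the 16 arm deserts with the most regions (y axis, flanking genes and number of regions). Points are libraries coloured by group; in PCDH7 to ARAP2 the means are 200, 342 and 244 in NCA, ASO2 and ASO10, and TENM4 to FAM181B shows overlapping groups.

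The 6 deserts with the most members were all pericentromeric, on chromosomes 1, 13, 20, 10, 22 and 15. Their ratios of ASO2 to NCA were 0.928, 0.928, 0.945, 0.929, 0.928 and 0.969, and in each the ASO2 and NCA libraries overlapped. The members with the highest CPM also lay there, inside a band or within 1.52 Mb of one. The highest, chr1:125178886-125180710, had 2350, 2630 and 2360 CPM in NCA, 2470, 2120 and 2280 with ASO2 and 2410, 2550 and 2440 with ASO10. With chr1:125182127-125183124 (933 ± 45.7, 893 ± 70.9 and 955 ± 43.6 CPM), it held 13.2% to 13.9% of the pericentromeric desert counts. A further 4, chr1:125166279-125168259, chr22:12175122-12178660, chr20:29444972-29445888 and chr1:124739277-124741581, had NCA means of 122, 116, 109 and 90 CPM. None of the 6 was called against NCA by edgeR or DESeq2, and none had an unadjusted edgeR p under 0.05 there. In limma-voom the first was lower under ASO2 than in NCA (adjusted p = 3.08e-14) and than under ASO10 (adjusted p = 1.3e-20), and the second than under ASO10 (adjusted p = 0.00225), with log2 fold changes of -0.11 to -0.13. With loess offsets the chromosome 20 region was higher under ASO2 than under ASO10 (adjusted p = 0.00915).

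Nearest genes were grouped by family, as a matter of position only. Cell adhesion and axon guidance genes, such as the SLITRK, PCDH and TENM families, were nearest to 323 arm desert regions (21.9%, 23 genes), beside 3.26% of all regions. Of these, 241 were tested, and 60 (24.9%) were higher under ASO2 and 2 lower, with a median log2 fold change of 0.575. Over all arm desert regions, whatever the nearest gene, 20% were higher, with a median of 0.37. Across the genome, 14.3% of the regions nearest to the same families were higher, with a median of 0.212. Whether the family mattered within the arm deserts was not tested. Developmental transcription factor genes were nearest to 28 arm regions, of which 5 of 18 tested were higher (27.8%), near the 20% of all arm desert regions. ZNF zinc finger genes and olfactory receptor genes were nearest to 532 and 221 members, all pericentromeric. Only 4 genes of each family were nearest to them, so these counts describe a few pericentromeric stretches and not the families. Of 475 and 201 tested regions, edgeR, DESeq2 and limma-voom called none higher under ASO2. At an unadjusted edgeR p under 0.05, 1 region in each was higher, while 12 ZNF and 10 olfactory receptor regions were lower. After adjustment, edgeR and DESeq2 each called 1 ZNF region lower. Since edgeR called 0.341% of all pericentromeric desert regions higher and 0.279% lower, these adjusted counts are near that background.

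Desert regions that overlap a long non-coding gene were 242 of the arm members (16.4%, as over all regions) and 41 of the pericentromeric (1.19%). Of the arm regions with such an overlap, 29 of 176 tested were higher under ASO2 (16.5%), and of those without, 190 of 921 (20.6%). Inside very long genes 2 of 22 were higher. In the immunoglobulin array none of 28 was called higher by edgeR, DESeq2 or limma-voom, 1 was higher at an unadjusted p under 0.05, and edgeR called 1 lower.

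The single regions with the smallest adjusted p under ASO2 are given next. On chromosome 3, chr3:162764206-162764956, 1261 kb from OTOL1 in the desert between OTOL1, an inner ear protein gene, and SI, the sucrase-isomaltase gene, had 5.54, 4.66 and 4.2 CPM in NCA. It had 19.2, 17.4 and 18.3 with ASO2 and 7.74, 7.06 and 6.51 with ASO10. The 3 groups were apart, with a log2 fold change of 1.93 ± 0.21 (SE) for ASO2 (adjusted p = 3.78e-16, edgeR) and 0.57 ± 0.23 for ASO10 (adjusted p = 0.268). ASO2 exceeded ASO10 by 1.36 ± 0.2 (adjusted p = 9.92e-09). In the same desert, chr3:162696471-162697349 stood at 2.26 ± 1.49, 10 ± 1.02 and 3.21 ± 0.579 CPM in NCA, ASO2 and ASO10 (log2 fold change 2.12, adjusted p = 5.45e-10 for ASO2).

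Regions on chromosomes 14, 4 and 1 followed. The region chr14:86707102-86707661, 1053 kb from FLRT2, a neuronal adhesion gene, had 3.35, 2.27 and 1.25 CPM in NCA, 12.3, 12.4 and 8.35 with ASO2 and 5.16, 3.76 and 2.73 with ASO10 (log2 fold change 2.27 ± 0.28, adjusted p = 3.78e-12 for ASO2). The region chr4:178815822-178816777, within the long non-coding gene LOC105377563 and 1374 kb from AGA, stood at 6.02 ± 2.49, 16.8 ± 2.65 and 8.93 ± 1.35 CPM (1.47 ± 0.2, adjusted p = 2.08e-10). In both, only the ASO2 libraries stood clear of NCA. The region chr1:188903200-188904442, 1194 kb from BRINP3, a neuronal gene, stood at 3.12 ± 1.57, 11.4 ± 0.195 and 6.79 ± 1.18 (1.84 ± 0.25, adjusted p = 2.7e-10). It was also called under ASO10 (adjusted p = 0.00827), a call that limma-voom (adjusted p = 0.0809) and 4 of the fits with a library left out did not make.

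Between the oligonucleotides, chr1:194809401-194810451 in CDC73 to KCNT2 stood at 6.57 ± 0.974, 13.6 ± 1.15 and 5.1 ± 0.6 CPM in NCA, ASO2 and ASO10. Here ASO2 exceeded ASO10 by a log2 fold change of 1.41 ± 0.22 (adjusted p = 1.96e-07). The region chr2:193526913-193527493 in TMEFF2 to SLC39A10 stood at 6.46 ± 1.13, 14.4 ± 1.32 and 6.18 ± 1.33 (1.22 ± 0.21, adjusted p = 3.78e-06). In both the ASO10 and NCA libraries overlapped. In the other direction, the arm region chr1:105459477-105460058 in AMY1C to PRMT6 stood at 2.33 ± 0.297, 1.01 ± 0.256 and 3.94 ± 0.592, apart in all 3 groups (-1.97 ± 0.47, adjusted p = 0.00318 between the ASOs). Of the 4 regions lower under ASO2 with the smallest adjusted p, the others were pericentromeric: chr13:16446885-16448173, chr1:123618603-123619050 and chr13:17892680-17893470, at -0.84, -0.59 and -0.74.

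The smallest adjusted p under ASO10 belonged to regions that also rose under ASO2. The region chr5:164962216-164962800, inside the long non-coding gene LINC03000 in the desert between MAT2B and TENM2, had 2.19, 0.882 and 1.82 CPM in NCA, 8.28, 7.3 and 6.33 with ASO2 and 7.15, 5.01 and 7.16 with ASO10. Its log2 fold change was 1.97 ± 0.32 for ASO10 (adjusted p = 5.85e-06) and 2.14 ± 0.32 for ASO2 (adjusted p = 9.34e-09). The region chr4:180227403-180228978 in AGA to TENM3 stood at 14 ± 1.35, 28.7 ± 0.996 and 25.6 ± 1.38 CPM, and chr13:104163891-104164939 in SLC10A2 to DAOA at 15 ± 3.26, 28.3 ± 4.09 and 26.1 ± 3.1. The region chr5:92552141-92553019, 1031 kb from the nuclear receptor gene NR2F1, stood at 11 ± 1.13, 17.8 ± 3.23 and 20.1 ± 0.374. In each of these 4 regions all 6 ASO libraries lay above NCA, and no difference between the ASOs was called (adjusted p = 0.634 to 0.824).

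Of the shared calls, those with the largest rise on average were chr5:164962216-164962800 and 2 regions nearly without counts in NCA. These 2 regions passed the filter on low counts only through the ASO libraries, so their folds are given as description. The first of these, chr13:82238045-82238508 in SPRY2 to SLITRK1, had at most 2 counts per NCA library. Set against a floor of 3 counts per NCA library, its mean was 7.82 times the floor with ASO2 and 4.37 times with ASO10. Its ASO10 call was lost in limma-voom (adjusted p = 0.251) and without NCA replicate 2 (adjusted p = 0.066). The second, chr4:63240355-63240842 between ADGRL3, a latrophilin adhesion receptor gene, and TECRL, also had at most 2 counts per NCA library. Its means with ASO2 and ASO10 were 6.4 and 4.16 times the floor, but ASO2 replicate 1 had only 7 counts (0.982 CPM). Its ASO10 call (adjusted p = 0.0208) was lost in limma-voom (adjusted p = 0.377) and in 5 fits with a library left out.

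**Figure D5:**
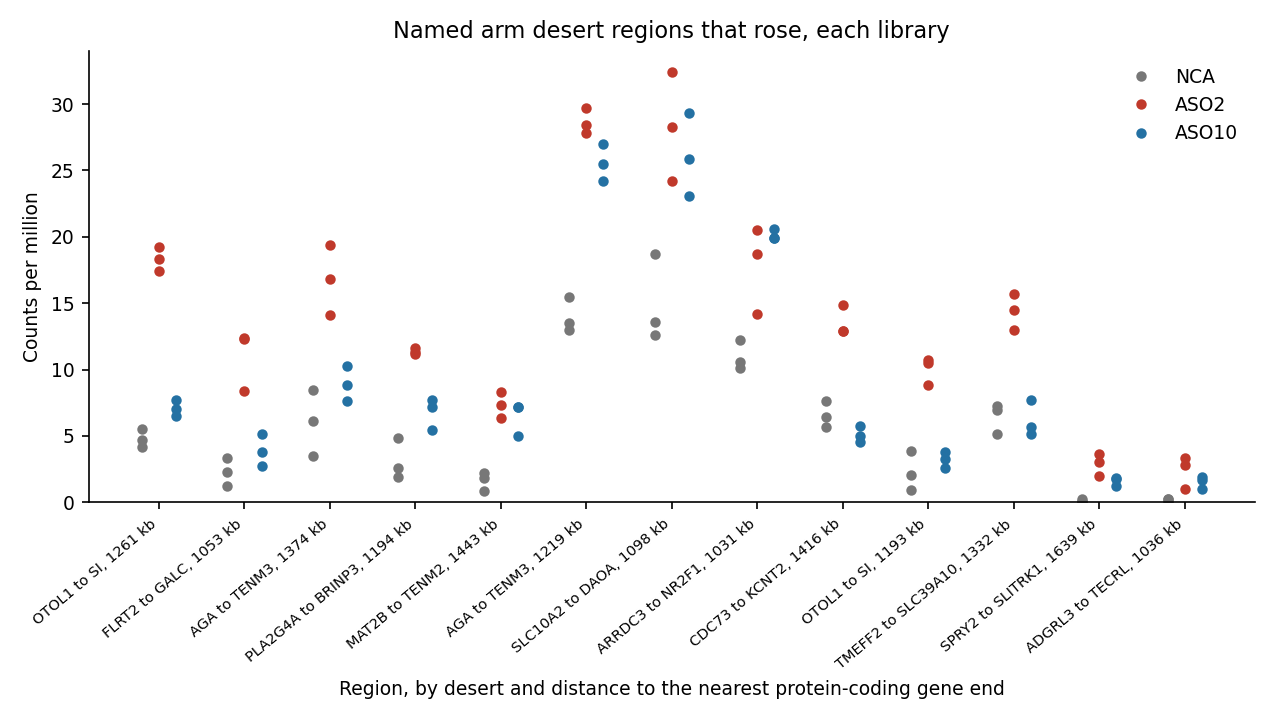
CPM (y axis) of 13 arm desert regions called higher, those with the smallest adjusted p and the shared calls with the largest rise (x axis, by desert and distance to the nearest gene end). Points are libraries coloured by group; the OTOL1 to SI region at 1261 kb rises from 4.8 in NCA to 18.3 with ASO2 and 7.1 with ASO10, while the AGA to TENM3 region at 1219 kb is high under both ASOs.

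Desert regions that fell were few. Under ASO2, the lowest adjusted p belonged to neighbours of the risen region in MAT2B to TENM2. The region chr5:164561827-164562907, also inside LINC03000, had 23.3, 21.7 and 26.2 CPM in NCA, 14.5, 16.8 and 14.2 with ASO2 and 19, 16.5 and 19.3 with ASO10 (log2 fold change -0.65 ± 0.15 for ASO2, adjusted p = 0.00104). The region chr5:165257955-165258809 stood at 26 ± 1.28, 17 ± 1.47 and 21.2 ± 2.37 (-0.62 ± 0.15, adjusted p = 0.00119). One desert thus held regions that moved in opposite directions under ASO2. The others were chr1:104765120-104765480 in AMY1C to PRMT6 (3.46 ± 0.681 in NCA and 0.836 ± 0.206 under ASO2, adjusted p = 0.003) and chr6:59044447-59045384 in the chromosome 6 centromere band (5.6 ± 1.98 and 2.46 ± 0.801, adjusted p = 0.0134, and 0.272 without NCA replicate 2). The region chr4:131763844-131764591 shares 4 bases with the upstream end of the SNHG27 promoter window and does not reach the start itself. It stood at 5.1 ± 0.159, 2.41 ± 0.959 and 4.54 ± 0.768 (adjusted p = 0.0244 for ASO2, and 0.187 without ASO2 replicate 2).

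Under ASO10 the 2 desert regions called lower lay on chromosome 3. The region chr3:95197492-95198479, in the pericentromeric desert NSUN3 to EPHA6 and 1.2 Mb outside the band, had 9.92, 13 and 14.4 CPM in NCA, 8.56, 9.55 and 10.4 with ASO2 and 7.62, 6.37 and 5.6 with ASO10 (log2 fold change -0.93 ± 0.21, adjusted p = 0.00336, and 0.0817 without NCA replicate 3). The region chr3:145056635-145057756 in DIPK2A to PLOD2 stood at 8.31 ± 1.52, 6.26 ± 1.12 and 4.46 ± 0.548 (adjusted p = 0.0461, lost in 10 of the alternative fits).

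Among pericentromeric regions the smallest p under ASO2 belonged to chr3:91441391-91442975, inside the chromosome 3 band. It had 10.4, 12.2 and 11.2 CPM in NCA, 24.6, 22.3 and 19.4 with ASO2 and 16.5, 17.9 and 14.6 with ASO10, with all groups apart (log2 fold change 0.96 ± 0.16, adjusted p = 7.42e-07 for ASO2). The next ones lay outside a band, near the 5 Mb limit. They were chr6:66976927-66977724 and chr6:66735072-66735420 in EYS to ADGRB3, at 4.38 and 4.14 Mb from the band, and chr3:83011314-83012564 in GBE1 to CADM2, at 4.79 Mb. The last stood at 5.54 ± 0.641, 10.5 ± 1.11 and 9.94 ± 1.13 CPM and was called under both ASOs, but its ASO10 call was lost in limma-voom (adjusted p = 0.107) and in 5 fits with a library left out (up to 0.199). The calls on both chromosome 6 regions under ASO2 were lost without ASO2 replicate 2 (adjusted p = 0.0638 and 0.284). The region chr6:67059410-67060268, 4.46 Mb from the band, at 3.67 ± 0.852, 7.32 ± 1.21 and 7.53 ± 1.04, was also called under both ASOs. Its calls were lost in limma-voom (adjusted p = 0.0518 for ASO2 and 0.104 for ASO10) and each in 4 fits with a library left out (up to 0.0745 and 0.198). Inside the chromosome 1 band, chr1:123877565-123877817 was called higher under ASO10 (3.1 ± 0.0758 to 6.77 ± 1.51, adjusted p = 0.0212), a call lost in limma-voom (adjusted p = 0.0995) and in 5 fits with a library left out.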

How the data were processed

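ATAC-seq was made from 9 libraries of SK-N-BE(2)c. The authors deposited whole-number counts for 1 set of regions, with no normalization visible in the values. Bowtie2 2.2.6, MACS2 2.1.2, SAMtools, FastQC and DESeq2 1.42.0 with build hg38 are named per the submitters' processing notes. Whether reads, pairs or cut sites were counted, how reads matching many places were treated and how the regions were set are not given in the sources used here. The labels list the molecule as total RNA while their protocol describes tagmented genomic DNA.

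Regions were assigned from their coordinates and the RefSeq gene table (GRCh38.p14). That table gives some genes of chromosomes 13, 14, 15 and 22 positions on other scaffolds, so distances and membership there are less certain. Pericentromeric deserts on these chromosomes are not named by flanking genes. An added alternative left these chromosomes out. Centromere band limits were entered from general knowledge of the GRCh38 cytogenetic map. Genome sequence was not used here. Counts were tested with edgeR 4.0.16 (R 4.3.3; filterByExpr by group, TMM, robust quasi-likelihood fit, all 9 libraries, a term per group), with Benjamini-Hochberg adjustment over all 119417 tested regions and a threshold of 0.05. Shares per library were compared by two-sided exact permutation tests. Folds against groups at or under 3 counts per library used that floor, which covers counting error only. On simulated counts for ASO2 against NCA over 119417 regions, where 200 had a log2 change of 1, the fit made 45 calls, 2 of them false. Those recovered were 21.5% of the 200 and 94.7% of the 38 over 3 log2 CPM. The simulation had no batch effect and changed far fewer regions than the 6687 called in the data. The adjusted threshold depends on that number, so these rates need not hold for the data.

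No library was a copy of another in its group, since chi-square over degrees of freedom ran from 2.74 to 3.42. Deviations of libraries with the same replicate number correlated at -0.0363 to 0.0126, and of those with different numbers at -0.0214 to 0.0307. Counting noise at these depths could hide a shared batch, so whether the numbers pair the libraries was not settled. The members, gene families, markers and alternatives were chosen with earlier results of these data known. Named regions were the 4 with the smallest adjusted p per direction in ASO2 against NCA, ASO10 against NCA and ASO2 against ASO10, the 3 shared calls with the largest change, the 6 with the highest CPM, the 4 pericentromeric ones with the smallest p for each ASO and the 6 deserts with the most members. The arm deserts and the regions at promoter windows were added after their values were seen. One item of the marker list is not reported here. Alternatives were a log2 fold change over 1, a replicate block, fits of only 2 groups, DESeq2 1.42.0, RLE factors, limma-voom (limma 3.58.1), loess offsets (span 0.3), total counts, a filter of 10 counts in every library or none, other distances and centromere windows, and leaving out each library. Tables and figures used Python 3.11.15, pandas 2.3.3 and matplotlib 3.10.9.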

Additional observations from a re-analysis of the deposited data

Results flagged for a closer look

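ASO2 and ASO10 differed from each other in 97 desert regions by a direct contrast of the oligonucleotides. The regions that differed most clearly were higher under ASO2 on the arms: OTOL1 to SI at chr3:162764206-162764956 (log2 fold change 1.36) and at chr3:162696471-162697349 (1.63), CDC73 to KCNT2 at chr1:194809401-194810451 (1.41) and TMEFF2 to SLC39A10 at chr2:193526913-193527493 (1.22). Lower under ASO2 were an arm region in AMY1C to PRMT6, chr1:105459477-105460058 (-1.97), and 3 pericentromeric regions, chr13:16446885-16448173 (-0.84), chr1:123618603-123619050 (-0.59) and chr13:17892680-17893470 (-0.74). The calls on the last 3 were lost when single libraries were left out: the first without ASO10 replicate 2 (adjusted p = 0.134, edgeR), the second without ASO2 replicate 2 (0.0972) and the third without ASO2 replicate 1 (0.17). Groups of 3 libraries were too small to be searched for single outlying libraries.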

How the results depend on the processing

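The direction of the arm desert share held under each denominator, distance, window and left-out library tried, for ASO2 and ASO10 against NCA and for ASO2 against ASO10. The share over all deserts turned from lower to higher under ASO2 without ASO2 replicate 2 (0.042 percentage points) and without NCA replicate 2 (0.018), in a range from -0.114, and the pericentromeric share under ASO10 turned to -0.0297 without ASO10 replicate 2 and -0.0335 without NCA replicate 3, in a range up to 0.0985. Over 2 Mb from any gene end lay 1477 members before the filter, 1461 pericentromeric and 16 on the arms. Of them, 6 were called with ASO2, 2 with ASO10 and 7 with both ASOs averaged. A further comparison, ASO2 against ASO10, called 5, and 0 were shared. Over all tested regions the shares called were 5.6%, 1.09% and 2.99%, with 3.23% between the ASOs and 0.518% shared. Limma-voom called 16 members for ASO10, 64 for both ASOs and 15 shared, and on the arms 15 for ASO10. Near the centromeres it called 6 for ASO2 and 1 for ASO10. It also called the strongest member, chr1:125178886-125180710, lower under ASO2 (log2 fold change -0.1 in edgeR, adjusted p = 3.08e-14 in limma-voom and 0.511 in edgeR), and the cause was not tested. A log2 fold change over 1 left 14 members for ASO10, 60 for both ASOs and 11 shared, 12 for ASO10 on the arms, and near the centromeres 9 for ASO2, 2 for ASO10 and 5 between the ASOs. Loess offsets gave 38 pericentromeric calls for ASO2 (12 higher and 26 lower) and split the calls between ASOs as 73 higher and 17 lower. At least 10 counts in every library gave 29 for ASO2 near the centromeres (9 higher and 20 lower) and 21 between the ASOs (5 and 16), and fitting only the groups compared gave 25 (5 and 20). Leaving out chromosomes 13, 14, 15 and 22, where gene positions are uncertain, kept the direction of each share and left 202 members called for ASO2, 32 for ASO10 and 78 between the ASOs. Centromere windows of 10 Mb gave 34 pericentromeric calls for ASO2 and of 2 Mb gave 2 for ASO10.

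Leaving out 1 library at a time gave 14 to 34 shared members, 43 to 107 between ASO2 and ASO10, 71 to 126 with both ASOs averaged, 15 to 43 with ASO10 and 145 to 239 with ASO2. On the arms it gave 139 to 221, 14 to 39 and 41 to 96, and near the centromeres 6 to 24, 1 to 4 and 2 to 17, for ASO2, ASO10 and ASO2 against ASO10. The median log2 fold change of members under ASO10 ran from 0.026 to 0.103. The replicate block gave 229, 33, 128 and 93 members in the 4 comparisons and 28 shared, and the labels do not say that the numbers mark a batch. Over the named regions, 103 of 2251 pairs of a region's result and an alternative lost the call, 6 gained it and none reversed. These pairs cover 135 results, many of which were not called in the main fit and had no call to lose. The fraction is therefore not the rate at which calls were lost, and a single call was lost in up to 11 alternatives. The median count per region and library was 14 on the arms and 31 near the centromeres. At these depths a region that was not called is not shown to be unchanged.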
